A study of Mus musculus with 24 samples.

Results

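Radiation-induced B-cell leukemias of wild-type mice were compared with the early B cells of irradiated wild-type mice that had no leukemia. The comparison used 7 of the 24 arrays of the series, chosen by the genotype and disease stage in their labels. Leukemic samples (n = 4) were labelled bone marrow B cells of wild-type (WT) mice, and the design text describes the source as tumor-bearing marrow. Preleukemic samples (n = 3) were pro/pre-B cells from marrow of WT mice. All 7 mice, like the Pax5+/- mice of the other 17 arrays, had received 2 Gy of ionizing radiation, so no group was without irradiation. Every sample carries a label of 3 weeks after irradiation, the leukemic ones included, which leaves the age of the leukemias unknown. Sex, mouse age, sorting scheme and batch are absent from the labels. Samples of a group are labelled as biological replicates, and the number of mice in the series design equals the number of arrays.

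Messenger RNA was measured on Affymetrix mouse gene arrays, in which labelled RNA binds short probes fixed to a chip and the brightness of a set of probes stands for the level of a transcript. The deposited values are log2 signals, so a difference of 1 is a 2-fold change. They compress differences near background, and 4 against 3 arrays limit the precision of every value. A gene was called, and is said below to have risen or fallen in leukemia, when limma's test gave an adjusted p under 0.05. The test covered 15647 of 19938 named genes, those that passed a filter on low signal. Errors are standard errors (SE) of the difference unless SD is written.

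B cells arise in the marrow from progenitors that pass through the pro-B and pre-B stages while they cut and rejoin their immunoglobulin genes. The transcription factors Ebf1 and Pax5 commit these cells to the B lineage, Pax5 switching on B-cell genes and switching off genes of other lineages. Pro-B cells divide in response to interleukin 7, and signals of a functional pre-B-cell receptor then help to start differentiation. Leukemias of this stage often carry lesions in these regulators and in genes of growth signalling.

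All 7 B-lineage markers measured lay above the 30th percentile of the array in all 7 arrays, though not evenly. Cd79a and Cd79b, which encode the signalling chains of the B-cell receptor, lay between 10.46 and 13.41 on the log2 scale in every array. Ptprc, which encodes CD45, ran from 10.64 to 11.29 and Cd24a from 12.14 to 12.97. Ms4a1, which encodes CD20 of later B cells, was low in leukemia (5.55 to 7.67) and 9.0 to 9.34 before it. The pre-B-cell receptor genes Vpreb1 and Igll1 were more uneven, from 6.55 to 9.18 and from 9.81 to 13.2 in leukemia. Markers of other marrow cells were not absent. The means of 4 platelet markers and of 5 stromal and endothelial markers were 9.89 to 10.72 and 8.55 to 9.15 in leukemic arrays, against 6.44 to 6.55 and 6.88 to 6.99 in preleukemic ones.

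Preleukemic array 1 stood apart from preleukemic arrays 2 and 3. On the first principal component of all 24 arrays it lay at 17.8, against 56.1 and 50.8 for the other two and -33 to -39.4 for the leukemic WT arrays. The 23 granulocyte genes averaged 9.86 there and 6.36 and 6.39 in the other two, and the 29 mitosis genes 9.71 there and 7.83 and 7.96 in the other two. Over the 6115 genes called, its value lay a median of 0.34 of the way from the mean of the other 2 preleukemic arrays to the leukemic mean. This share was 1.0 for mitosis genes and 0.67 for DNA replication genes, but 0.17 for Pax5-activated genes, -0.02 for platelet genes and -0.07 for stromal genes. Results are therefore also given without this array where it decides a call or moves a value by more than 1.5 times.

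The mean of 3 Y-linked genes was 8.34 to 8.71 in preleukemic and 4.73 to 4.95 in leukemic WT arrays. Xist, the RNA of the inactive X chromosome, ran the other way, from 5.20 to 5.62 and from 12.03 to 12.35. Sex and stage therefore cannot be told apart by the WT arrays alone. Where the Y-linked level was added as a covariate in the fit of all 24 arrays, 2547 genes rose and 2538 fell.

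Of the 15647 genes tested, 2924 rose in leukemia (18.7%) and 3191 fell (20.4%), together 39.1%. At least 2-fold differences were found for 883 genes that rose (5.64%) and 560 that fell (3.58%). In 2957 genes (18.9%) every leukemic array lay above every preleukemic one, and in 3188 genes (20.4%) every leukemic array lay below. Without preleukemic array 1, 2981 genes rose (19.1%) and 4066 fell (26.0%), together 45.0%. Of the 6115 genes called with all arrays, 5673 (92.8%) were then called in the same direction and 0 in the opposite one. Without preleukemic array 3, 2048 genes fell. The split between rises and falls depends on how arrays are scaled. Rises made up 47.8% of calls as deposited, 60.8% with arrays centred on their median, 55.3% after repeated quantile normalization and 27.8% with arrays centred on the median of the tested genes. The median difference of all genes was -0.05, 0.02 with the first centring and -0.18 with the last. The plot of all genes tested shows the spread of these differences against their adjusted p.

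**Figure D1:**
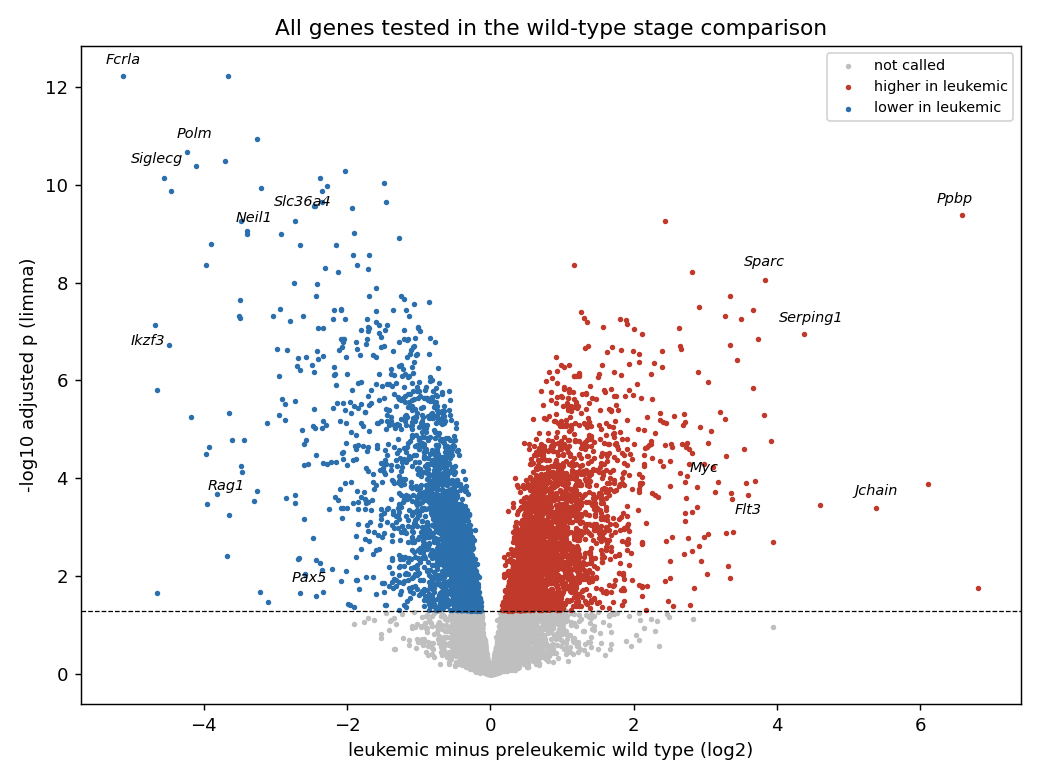
Each point is 1 of 15647 genes, with the leukemic minus preleukemic WT difference (log2) on the horizontal axis and -log10 of the limma adjusted p on the vertical axis, and the dashed line marks an adjusted p of 0.05. Fcrla (-5.12) and Ppbp (6.58) lie near the outer edges, and Pax5 (-2.43, adjusted p = 0.0256) lies close to the line.

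The genes that fell furthest included B-cell genes related to immune receptors. Fcrla, which encodes an intracellular relative of Fc receptors made by B cells, was 6.51, 6.38, 6.25 and 6.43 in leukemic arrays 1 to 4 and 10.94, 11.7 and 11.9 in preleukemic arrays 1 to 3. This is a 34.9-fold fall (log2 difference -5.12 ± 0.23, adjusted p = 6.03e-13), and the leukemic arrays lay close together. Siglecg, an inhibitory lectin of B cells, was 7.06, 6.87, 6.71 and 6.50 in leukemia and 10.92, 11.52 and 11.56 before it, a 23.4-fold fall. Fcmr, the Fc receptor for IgM, was 6.66, 6.31, 6.22 and 6.33 in leukemia and 9.73, 10.96 and 10.97 before it, 18.1-fold lower. The groups are far apart in each of these genes, and preleukemic array 1 is the lowest of its group in all 3.

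Other deep falls were in genes of other functions. The membrane carboxypeptidase gene Cpm fell 25.1-fold, the sodium pump subunit gene Atp1b1 22.5-fold, the secreted glycoprotein gene Reln 21.8-fold and the metalloprotease gene Adam19 15.7-fold. Lgr5, a receptor for R-spondins best known from intestinal stem cells, was at or below the 30th percentile of the array (the dim level) on 2 of 4 leukemic arrays and at least 16.9-fold lower. Cd2, an adhesion receptor of lymphocytes, was 6.11, 9.41, 6.25 and 6.15 in leukemia and 10.37, 11.27 and 11.23 before it. It fell 15.7-fold with all arrays and 27.5-fold without leukemic array 2, whose value stands far above those of the other leukemias. Eya1, a transcriptional coactivator and phosphatase, fell 15.5-fold.

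Pax5 itself was 10.74, 6.34, 10.67 and 10.03 in leukemic arrays 1 to 4 and 11.47, 12 and 12.16 in preleukemic arrays 1 to 3. All leukemic values lay below all preleukemic ones, and 1 leukemia, array 2, lay far below the others. The difference was -2.43 ± 0.84 (adjusted p = 0.0256), a 5.38-fold fall. The call ended when leukemic array 2 was left out (-1.39, adjusted p = 0.106). It ended likewise when preleukemic array 2 (-2.37, adjusted p = 0.0752) or array 3 (-2.29, adjusted p = 0.0859) was. It also ended with the Y-linked covariate (-1.85, adjusted p = 0.154), and Pax5 lay 6.2-fold lower without preleukemic array 1 (adjusted p = 0.0319).

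Genes that Pax5 activates fell together. Of 23 tested, 18 fell and 0 rose, with a median difference of -1.93 against -0.05 over all genes. In 17 of them all leukemic arrays lay below all preleukemic ones. The list mean was 8.60, 8.20, 8.18 and 8.22 in leukemia and 10.16, 10.45 and 10.49 before it. A link between the Pax5 level of an array and this mean was not tested. Ikzf3, which encodes the lymphoid factor Aiolos, was 5.80, 7.90, 5.87 and 7.34 in leukemia against 10.93, 11.59 and 11.71, a 25.6-fold fall. Bach2, a repressor that guards B-cell identity, was 8.62, 8.19, 8.93 and 7.51 against 11.78, 12.41 and 12.44 and fell 14.9-fold. The surface receptor gene Cd72 fell 12.8-fold and the ectoenzyme gene Bst1 6.03-fold. Not called were Sdc4 (-1.02), Cd22 (-0.33), Fcer2a (-0.21), Capn2 (0.18) and Rasgrp3 (0.95). In bulk samples such as these, fewer cells of a type and less RNA per cell cannot be told apart.

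**Figure D2:**
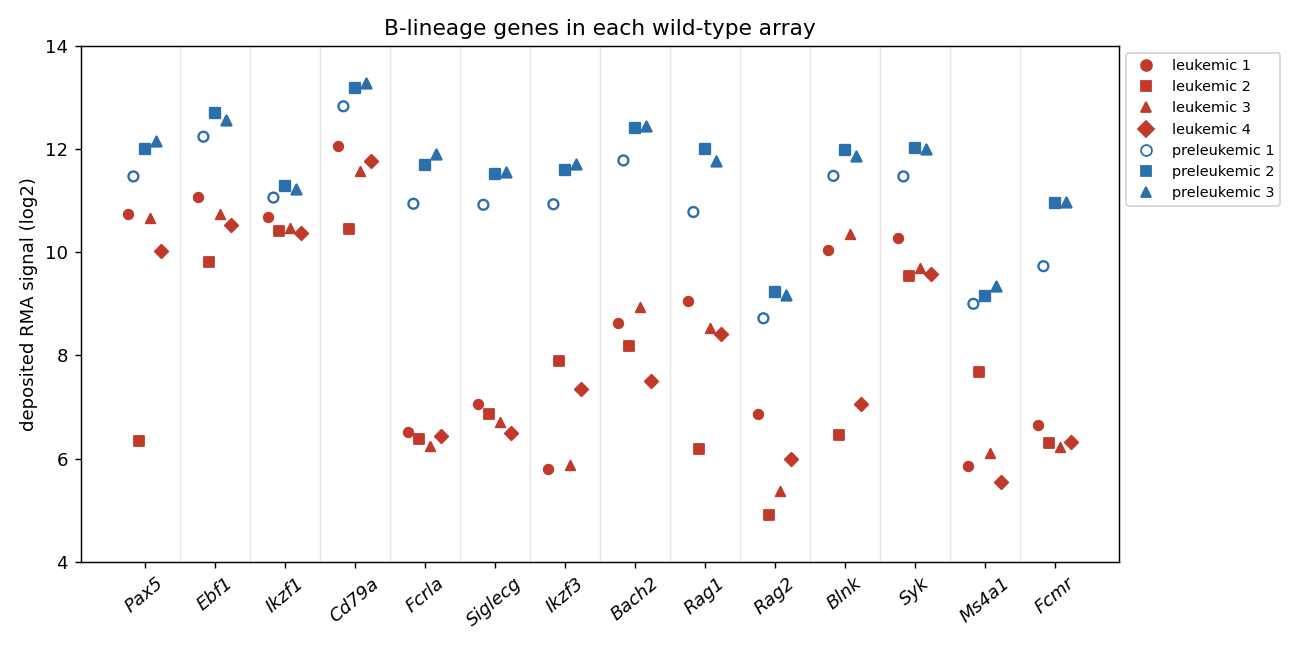
Deposited RMA signal (log2) of 14 B-lineage genes in each of the 7 WT arrays, with red symbols for leukemic and blue symbols for preleukemic arrays and an open circle for preleukemic array 1. All 14 genes were lower in every leukemic array, and leukemic array 2 lies far below the other leukemias in Pax5 (6.34) and Rag1 (6.18).

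The transcription factors of the B lineage fell broadly: 20 of 28 fell, 2 rose and 6 were not called, with a median of -1.13. Ebf1, which acts upstream of and with Pax5, was 11.08, 9.81, 10.74 and 10.53 in leukemia and 12.24, 12.7 and 12.56 before it, a 3.88-fold fall (-1.96 ± 0.24, adjusted p = 2.75e-06). Ikzf1, which encodes Ikaros, ran from 10.38 to 10.68 in leukemia and from 11.06 to 11.28 before it, a 1.63-fold fall (-0.70 ± 0.11, adjusted p = 4.54e-05). Foxo1, which drives recombinase genes, fell 6.31-fold, and Tcf3, which encodes the E2A proteins, fell 4.02-fold. Irf4, a factor of pre-B differentiation and of plasma cells, was 9.43, 8.29, 8.11 and 7.78 against 10.99, 11.64 and 11.43 and fell 7.75-fold. Lef1, a partner of Wnt signalling active in pro-B cells, fell 12.5-fold, and Spib, an Ets factor, 5.36-fold. Those that rose were Etv6 (2.0-fold), an Ets-family repressor altered in human leukemia, and Mef2c (1.41-fold), a factor of lymphoid progenitors.

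Stage genes of early B cells divided. Among the 26 genes listed for the pro-B and pre-B stages there were 12 falls and 3 rises, and 11 were not called (median -0.92). Over all genes 20.4% fell and 18.7% rose. Rag1, which with Rag2 cuts immunoglobulin genes for recombination, was 9.06, 6.18, 8.53 and 8.41 in leukemia and 10.78, 12.01 and 11.77 before it. It fell 11.1-fold, and 7.23-fold without leukemic array 2. Rag2 was 6.87, 4.91, 5.38 and 6.00 against 8.72, 9.23 and 9.17, at least 9.01-fold lower, since 1 leukemic array lay at the dim level. Vpreb3, a chaperone-like partner of the pre-B receptor, fell 6.41-fold. Dntt, the polymerase that adds bases at the joints, was not called: it was 11.08, 8.30, 10.94 and 8.21 against 10.7, 10.45 and 10.36. Leukemias 1 and 3 thus lay above and leukemias 2 and 4 below all preleukemic arrays. Arpp21, a phosphoprotein gene, rose 2.41-fold, and Mme, which encodes CD10, was at least 1.76-fold higher.

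The recombination and end-joining list as a whole, Rag1 and Rag2 included, was likewise mixed, with 8 of 21 falling and 6 rising (median -0.13). The shares over all genes were 20.4% and 18.7%. Polm, a polymerase that fills gaps at light-chain joints, was 5.78, 6.07, 5.57 and 5.92 in leukemia and 9.35, 10.32 and 10.53 before it, an 18.8-fold fall. The ligase gene Lig4 fell 4.69-fold. Xrcc5, which encodes the Ku80 subunit that holds broken ends, rose 3.64-fold, and the theta polymerase gene Polq, of a back-up joining route, 1.82-fold. Rearranged segments could be followed only in part, since 8 kappa variable segments and no heavy-chain variable segment had a usable probe set. Igkv19-93 was 12.78 in leukemic array 3 and 12.32 in array 2, 1.97 and 1.51 above the median of the other leukemias, against 10.15 to 11.12 in preleukemic arrays.

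Below the receptor, 12 of 23 signalling genes fell and 2 rose (median -0.47). Blnk, the adaptor that links the receptor to downstream enzymes, was 10.04, 6.45, 10.36 and 7.05 in leukemia and 11.48, 11.98 and 11.87 before it. Leukemias 2 and 4 were thus far below leukemias 1 and 3. Blnk fell 9.87-fold with all arrays. Leaving out leukemic array 2 gave 6.19-fold, and leaving out array 3 gave 15.3-fold. The kinase gene Syk was 10.28, 9.53, 9.69 and 9.57 against 11.47, 12.02 and 12 and fell 4.18-fold, and Pik3ap1, an adaptor to phosphoinositide 3-kinase, fell 5.37-fold. Cd79a fell 3.11-fold and Btk 2.15-fold. The kinase gene Fyn (1.84-fold) and the phospholipase gene Plcg2 (1.53-fold) rose.

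Of 22 genes of mature B cells 8 fell, 0 rose and 14 were not called (median -0.57). The shares over all genes were 20.4% falling and 18.7% rising, and differences in the list ran from -4.17 to 1.44. Ms4a1, which encodes CD20, was 5.86, 7.67, 6.11 and 5.55 in leukemia against 9.0, 9.16 and 9.34, a 7.30-fold fall. Ighm, the heavy chain of IgM, fell 6.06-fold and Cd40 2.58-fold. Genes of MHC class II presentation showed 4 falls and 0 rises among 13, and 9 were not called, against the same shares. H2-Ob, which restrains peptide loading, was 7.19-fold lower. H2-Ab1, a class II chain, was 8.70, 7.28, 9.08 and 8.00 against 10.62, 9.75 and 10.14 (-1.90, adjusted p = 0.0431). Leaving out preleukemic array 1 ended its call (-1.68, adjusted p = 0.108), and so did leaving out 4 others in turn (adjusted p from 0.0666 to 0.118).

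Genes that Pax5 represses moved unevenly: 7 of 25 rose, 4 fell and 14 were not called (median 0.41). Over all genes 18.7% rose and 20.4% fell. Flt3, a receptor tyrosine kinase of early lymphoid progenitors, was 10.65, 10.36, 10.7 and 10.62 in leukemia and 8.71, 6.13 and 6.09 before it. It rose 12.2-fold, and 22.2-fold without preleukemic array 1, which lay well above the other 2. Emb, an adhesion protein, was 11.67, 11.38, 11.35 and 11.19 against 9.93, 7.08 and 7.04 and rose 10.4-fold, or 20.2-fold without preleukemic array 1. Jchain, which joins immunoglobulin subunits into polymers, was 9.00, 12.22, 12.17 and 11.66 against 7.38, 5.08 and 5.19. Its rise was at least 38-fold, and the fitted change was 70-fold without leukemic array 1 and 69.7-fold without preleukemic array 1. The other rises were in Csf1r, a macrophage receptor also counted with monocyte genes, Lmo2, Grap2 and Xbp1. The falls were in Cd44 (3.02-fold), Padi2, Sdc1 and Sh3bgr. The list had 2 falls without leukemic array 3, without preleukemic array 2 or without preleukemic array 3.

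Stem and progenitor genes partly shared that list, and 8 of 23 rose while 3 fell (median 0.41), against 18.7% and 20.4% of all genes. With arrays centred on the median of the tested genes 5 rose and 4 fell, and with arrays centred on their own median 8 rose and 1 fell. Without preleukemic array 2, 5 rose and 1 fell. Lmo2, a hematopoietic adaptor and T-cell oncogene, was 10.58, 10.07, 10.35 and 9.80 in leukemia against 9.28, 7.90 and 7.85, a 3.62-fold rise. Slamf1, a surface marker of stem cells, rose 3.75-fold. Kit, the receptor of stem cell factor, was 7.86, 10.47, 7.28 and 8.13 against 7.29 to 7.43 and was not called (adjusted p = 0.315). The highest Kit value was in leukemia 2.

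Interleukin-7 signalling showed few called differences: 4 of 23 genes fell and 1 rose, against 20.4% and 18.7% of all genes. Without leukemic array 1, 4 rose and 2 fell, without leukemic array 3 or preleukemic array 2 or 3 between 1 and 2 fell, and with arrays centred on the median of the tested genes 1 rose and 8 fell. The receptor gene Il7r was 12.77, 11.19, 12.09 and 11.88 in leukemia and 11.96, 12.45 and 12.1 before it (-0.19 ± 0.24, adjusted p = 0.55), and the groups overlapped. Jak1 differed by -0.38 ± 0.35 (adjusted p = 0.4). The feedback regulators Socs2 (2.47) and Cish (1.73) had large differences that were not called. The kinase gene Pim2 fell 2.22-fold and the phosphatase gene Ptpn11 rose 1.47-fold, and both calls ended without preleukemic array 2 or without preleukemic array 3.

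Genes of cell growth rose widely. Myc, the transcription factor that drives ribosome synthesis and cell growth, was 9.97, 11.48, 11.76 and 11.57 in leukemia and 9.37, 7.75 and 7.82 before it. It rose 7.37-fold (2.88 ± 0.51, adjusted p = 0.00015), and leukemic array 1 was the lowest leukemia and preleukemic array 1 the highest of its group. Of 32 ribosome biogenesis and MYC target genes, 30 rose and 0 fell (median 1.02), and in 30 every leukemic array lay above every preleukemic one. With arrays centred on the median of the tested genes 27 still rose. Leukemic array 1 was the lowest leukemia in 25 of the 32 genes. Srm, which makes the polyamine spermidine, was 10.79, 11.04, 11.16 and 10.7 against 9.27, 7.49 and 7.90 and rose 6.52-fold. Gnl3, a nucleolar GTPase, rose 3.39-fold, Wdr12, a factor of the large ribosomal subunit, 3.07-fold, and Dkc1, which modifies ribosomal RNA, 3.04-fold.

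Since these genes rose together, their promoters were searched for the MYC-binding E-box CACGTG, which reads the same on both strands. The windows were the 250 bases before each gene start, from RefSeq on GRCm38.p6. The E-box stood in 4 of 26 genes of the list with a promoter (15.4%), against 6.86% of all 27025 genes with one. It also stood in 3 of 24 B-lineage transcription factors (12.5%) and 2 of 21 Pax5-activated genes (9.52%), lists in which most genes fell. The 4 windows follow, read 5′ to 3′ on the strand of the gene, with each match in capitals. They show where the matches lie, and a match is a description of the sequence, not a measured binding site.
Nop2 (chr6:125131633-125131882, plus strand): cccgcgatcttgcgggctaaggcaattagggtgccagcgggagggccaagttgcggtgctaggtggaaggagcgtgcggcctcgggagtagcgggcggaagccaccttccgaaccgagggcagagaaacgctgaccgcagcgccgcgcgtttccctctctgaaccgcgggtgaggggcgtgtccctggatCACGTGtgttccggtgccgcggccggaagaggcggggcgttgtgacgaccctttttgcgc
Eif4e (chr3:138527018-138527267, plus strand): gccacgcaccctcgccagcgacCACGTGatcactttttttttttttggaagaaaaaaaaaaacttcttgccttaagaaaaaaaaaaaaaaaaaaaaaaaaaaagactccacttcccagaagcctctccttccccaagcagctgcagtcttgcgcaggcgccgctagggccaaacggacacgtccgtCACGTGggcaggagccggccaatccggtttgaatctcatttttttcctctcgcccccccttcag
Hspd1 (chr1:55088244-55088493, minus strand): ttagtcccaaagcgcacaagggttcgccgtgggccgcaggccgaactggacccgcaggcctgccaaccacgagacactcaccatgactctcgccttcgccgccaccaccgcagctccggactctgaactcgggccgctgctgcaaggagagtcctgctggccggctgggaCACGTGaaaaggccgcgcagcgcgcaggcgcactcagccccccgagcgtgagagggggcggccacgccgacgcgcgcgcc
Timm8a1 (chrX:134541671-134541920, minus strand): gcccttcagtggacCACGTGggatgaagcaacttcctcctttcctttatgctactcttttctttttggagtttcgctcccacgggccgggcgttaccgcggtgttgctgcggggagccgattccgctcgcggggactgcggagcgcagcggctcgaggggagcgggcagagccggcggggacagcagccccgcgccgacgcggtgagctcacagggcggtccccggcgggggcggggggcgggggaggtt
Nop2, an RNA methyltransferase of the nucleolus, rose 2.1-fold. Eif4e, the cap-binding factor of translation, holds 2 matches and rose 1.53-fold. Hspd1, a mitochondrial chaperonin, rose 2.95-fold and Timm8a1, a mitochondrial import factor, 2.78-fold. Gnl3, with a larger rise, is not among the matches.

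Ribosomal proteins themselves moved little. Of 22 genes 14 rose and 0 fell, by at most 1.65-fold (Rpl22), but 6 rose with arrays centred on the median of the tested genes and 7 rose without preleukemic array 3. Genes of nucleotide synthesis and one-carbon metabolism rose in 19 of 23 cases, with 0 falls (median 1.07). Mthfd1, a folate enzyme, was 9.04, 9.22, 9.48 and 9.26 in leukemia and 7.87, 6.55 and 6.55 before it, a 4.79-fold rise. Shmt2, the mitochondrial serine enzyme that feeds the folate cycle, rose 3.5-fold, and Atic, of purine synthesis, 3.49-fold. Among glycolysis genes 8 of 23 rose and 1 fell, against 18.7% and 20.4% of all genes. Ldha, which makes lactate, rose 2.42-fold and Tpi1 2.24-fold, and the glucose transporter gene Slc2a3 rose 3.76-fold, or 6.44-fold without preleukemic array 1.

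Lipid and amino acid genes were split. Of 24 cholesterol and fatty acid genes, 7 rose and 2 fell, against 18.7% and 20.4% of all genes. In this list 11 rose without preleukemic array 1 but 3 without preleukemic array 2. Scd1, which desaturates fatty acids, was 6.98, 6.07, 6.35 and 7.76 in leukemia and 10.14, 10.02 and 10.54 before it, a 10.9-fold fall, whereas Fasn, the fatty acid synthase, rose 2.87-fold. Of 16 amino acid transporter genes 7 rose and 6 fell, and between 4 and 5 rose with the Y-linked covariate or without leukemic array 1, leukemic array 3, preleukemic array 2 or preleukemic array 3. Slc7a5, the large neutral amino acid carrier, rose 3.34-fold, while the glutamine carrier gene Slc1a5 fell 4.18-fold and the lysosomal carrier gene Slc36a4 6.57-fold.

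**Figure D3:**
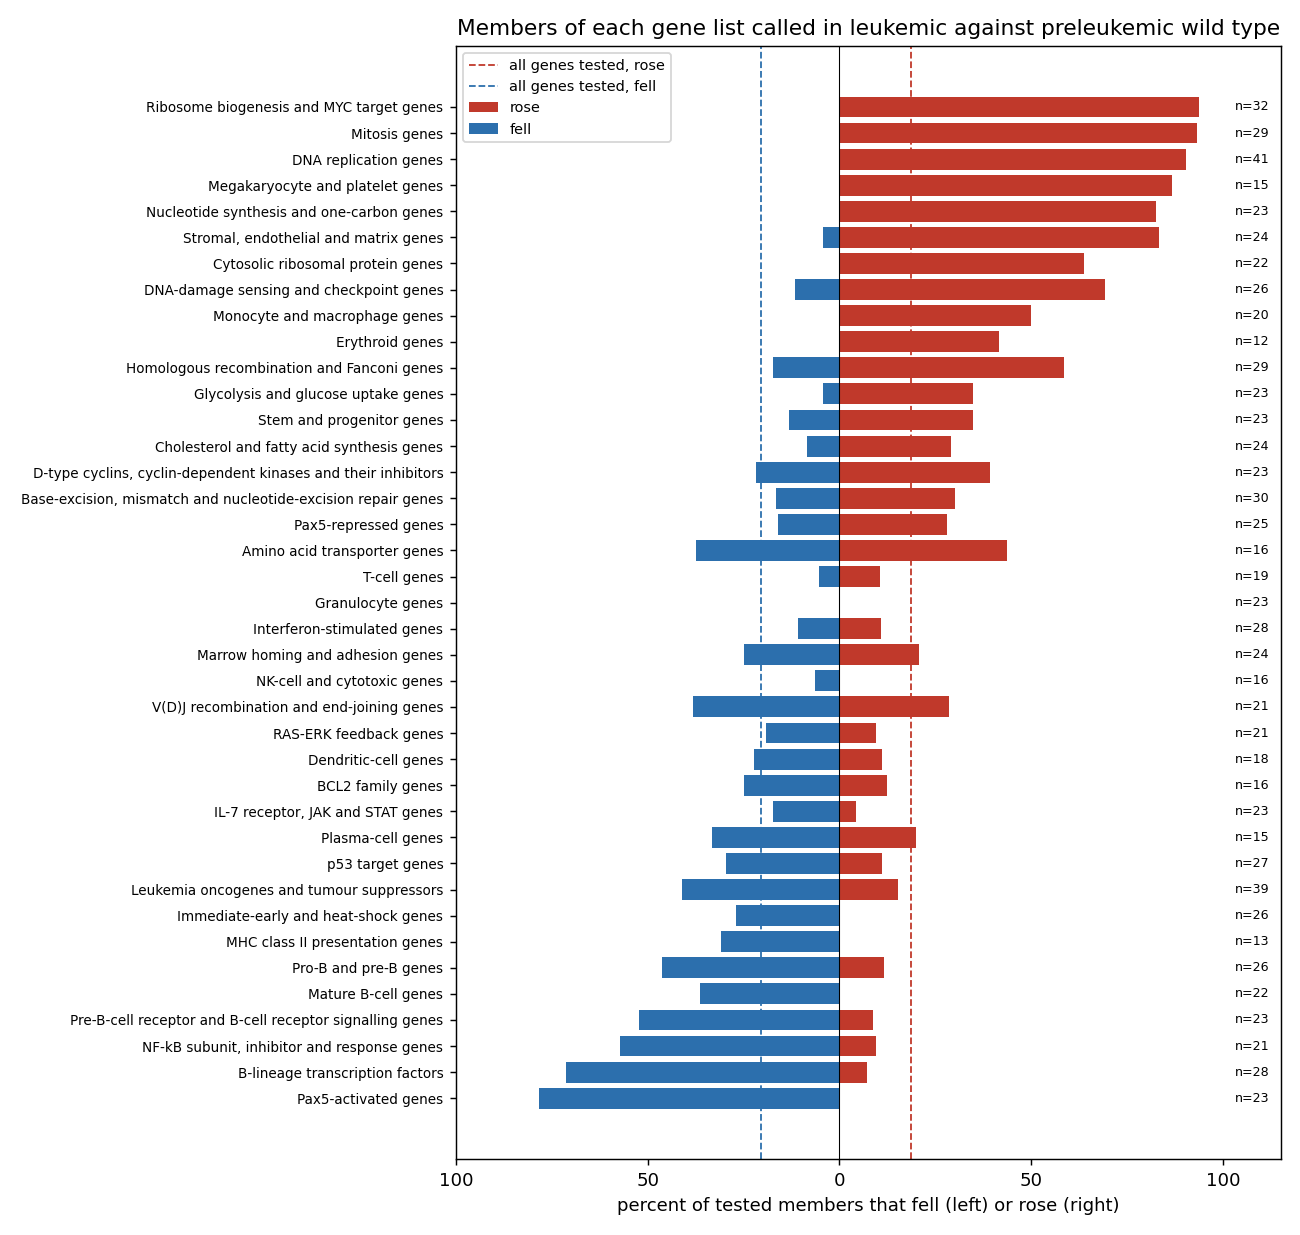
For each of 39 gene lists, bars give the percent of tested members that rose (red, right) or fell (blue, left) in leukemic WT arrays, n is the number tested, and dashed lines mark the same percents over all genes (18.7% and 20.4%). Ribosome biogenesis (30 of 32), mitosis (27 of 29) and DNA replication (37 of 41) lie at the top, and Pax5-activated genes (18 of 23 fell) at the bottom.

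Genes of DNA replication rose in 37 of 41 cases with 0 falls (median 0.93), and in 35 the groups did not overlap. Tyms, which makes thymidylate, was 10.0, 9.62, 9.87 and 9.83 in leukemia and 9.11, 7.31 and 7.54 before it, a 3.58-fold rise. Pole2 and Pole, of the leading-strand polymerase, rose 3.54-fold and 2.95-fold, and the helicase gene Mcm6 rose 2.66-fold. Mitosis genes rose in 27 of 29 cases with 0 falls (median 1.24). Here the groups overlapped in most genes, and only 6 were higher in all leukemic arrays. Plk1, a kinase of mitotic entry, was 10.61, 11.21, 11.1 and 11.15 against 10.83, 7.93 and 8.56, so that preleukemic array 1 lay inside the leukemic range. Plk1 rose 3.76-fold with all arrays, 6.82-fold without preleukemic array 1 and 2.5-fold without preleukemic array 2. Cdk1 rose 3.49-fold and Kif2c, a kinesin, 3.54-fold, or 5.73-fold and 5.76-fold without preleukemic array 1. In all, 28 mitosis genes rose without that array, with a median of 1.90. Without preleukemic array 2, 10 rose, and without preleukemic array 3, 11.

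Regulators of the entry into the cell cycle divided: 9 of 23 rose and 5 fell, against 18.7% and 20.4% of all genes. Without preleukemic array 1, 14 rose and 4 fell, and 5 rose and 5 fell both without preleukemic array 2 and with the Y-linked covariate. Cdk6, the kinase partner of D-type cyclins, was 12.1, 11.31, 12 and 11.42 in leukemia and 10.25, 8.86 and 9.29 before it, a 4.73-fold rise. Ccnd2 was 10.61, 11.71, 11.65 and 11.73 against 10.05, 8.48 and 9.20 and rose 4.53-fold, a call lost when preleukemic array 2 was left out (adjusted p = 0.0908). Ccnd3, the cyclin D of pre-B cells, fell 1.82-fold. Among inhibitors Cdkn2c rose 5.74-fold, or 9.36-fold without preleukemic array 1, while Cdkn1b fell 2.44-fold and Rb1 2.71-fold. Cdkn2a, a tumor suppressor often deleted in this leukemia, lay between 6.00 and 6.25 in all 7 arrays (0.00 ± 0.08, adjusted p = 0.974).

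Genes of the DNA-damage response rose more often than they fell. Of 26 sensing and checkpoint genes 18 rose and 3 fell (median 0.61). Chek1, the kinase that answers stalled forks, was 9.35, 8.93, 9.43 and 9.27 in leukemia against 8.42, 7.34 and 6.97 and rose 3.19-fold, and the fork protector gene Tipin rose 2.92-fold. Atm, the kinase of double-strand breaks, was 8.60, 8.73, 8.94 and 8.49 against 8.26, 8.02 and 7.97, a 1.53-fold rise. The call for Atm was lost if preleukemic array 2 (adjusted p = 0.0532) or 3 (adjusted p = 0.0623) was left out. The phosphatase gene Cdc25b fell 3.86-fold. Of 29 homologous recombination and Fanconi genes 17 rose and 5 fell (11 rose without preleukemic array 2), with the nuclease gene Dna2 2.95-fold and Brca2 2.37-fold higher.

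Other repair genes showed single large differences. Neil1, a glycosylase that removes oxidized bases, was 6.92, 7.14, 7.16 and 7.09 in leukemia and 9.96, 10.82 and 10.63 before it, a 10.5-fold fall. Apex1, the endonuclease of the next step, rose 3.52-fold. In the list of base-excision, mismatch and nucleotide-excision repair as a whole 9 of 30 rose and 5 fell, against 18.7% and 20.4% of all genes. With arrays centred on the median of the tested genes, 7 rose and 9 fell. Among 27 p53 targets, 8 fell and 3 rose (median 0.09), against 20.4% and 18.7% of all genes. Btg2, which slows division, was 9.10, 9.03, 8.80 and 8.85 against 11.39, 12.45 and 12.07 and fell 8.16-fold, and Rrm2b, which supplies nucleotides for repair, fell 4.92-fold. Mdm2, the main brake of p53, fell 1.87-fold, whereas the death genes Bbc3 (-0.03) and Pmaip1 (0.14) were not called.

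Of 16 BCL2 family genes 4 fell and 2 rose, not far from the shares over all genes (20.4% and 18.7%). Bcl2l1, which encodes Bcl-xL, was 8.18, 8.66, 7.36 and 7.61 in leukemia and 9.38, 9.74 and 9.98 before it, a 3.35-fold fall. Bmf, which promotes cell death, fell 3.61-fold and Mcl1, which protects from it, 1.98-fold. Bcl2 was 9.66, 9.89, 8.64 and 8.89 against 9.17, 7.30 and 7.83 and was not called (1.17 ± 0.54, adjusted p = 0.0878). Leaving out preleukemic array 1 made it 3.26-fold higher (adjusted p = 0.0201).

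Of 21 NF-kB genes 12 fell and 2 rose (median -0.66). The falls included inhibitors that NF-kB itself induces: Nfkbid 4.28-fold, Nfkbie 3.99-fold, Nfkbia 3.63-fold and Tnfaip3 4.01-fold. Tnfaip3 was 7.26, 7.49, 7.53 and 7.16 in leukemia and 8.68, 10.1 and 9.30 before it. Tnf rose 3.32-fold and the kinase gene Ikbke 1.76-fold.

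Of 26 immediate-early and heat-shock genes 7 fell and 0 rose, against 20.4% and 18.7% of all genes. In this list 10 fell without preleukemic array 1 and 4 without preleukemic array 2. With arrays centred on the median of the tested genes 11 fell. Fosb, an AP-1 subunit, was 6.21, 6.20, 6.17 and 6.43 in leukemia against 7.20, 11.12 and 7.44, a 5.04-fold fall. Without preleukemic array 2 it was 2.1-fold lower (adjusted p = 0.254), and without preleukemic array 1 8.15-fold lower. Jund, another AP-1 subunit, was 7.64, 8.51, 8.38 and 8.33 against 9.86, 11.02 and 10.31 and fell 4.53-fold, with no array deciding the call. Of 21 RAS-ERK feedback genes 4 fell and 2 rose, against 20.4% and 18.7% of all genes. Without preleukemic array 2 or without preleukemic array 3, 1 fell, and 2 fell with the Y-linked covariate. Spry2 was 2.37-fold lower, a call that ended without preleukemic array 2, without preleukemic array 3 or without leukemic array 4.

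Of 24 homing and adhesion genes 5 rose and 6 fell, shares near those over all genes (18.7% and 20.4%). S1pr1, the receptor that guides lymphocytes into the blood, was 7.24, 7.17, 6.94 and 7.11 in leukemia and 9.04, 10.17 and 9.97 before it, a 6.1-fold fall. Ccr7, a lymph-node homing receptor, fell 3.37-fold and Cxcr4, which holds B-cell precursors in the marrow, 2.03-fold. The integrin genes Itga5 (2.02-fold) and Itgb1 (1.73-fold) rose.

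Among 39 leukemia oncogenes and tumor suppressors 16 fell and 6 rose (median -0.12), against shares of 20.4% and 18.7% over all genes. Btg1, an antiproliferative gene often deleted in human B-cell leukemia, was 11, 10.34, 10.25 and 9.85 in leukemia against 12.53, 13.04 and 12.9 and fell 5.5-fold. Chromatin regulators among the falls were Kmt2a (1.79-fold), Crebbp (1.66-fold), Kmt2d (1.58-fold) and Ep300 (1.57-fold). Beside Myc and Etv6, the rises were in Pdgfrb (3.61-fold), a growth factor receptor of stromal cells, Epor, Ptpn11 and Phf6. Of the plasma-cell list 5 of 15 fell and 3 rose, against the same shares. The rises were in Jchain, Mzb1 (2.18-fold), which aids antibody assembly, and Xbp1 (1.36-fold).

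Genes of other marrow cells were among the large rises. Ppbp, a platelet chemokine, was 12.94, 12.71, 12.5 and 13.01 in leukemia and 6.12, 6.10 and 6.40 before it, a 96-fold rise (6.58 ± 0.45, adjusted p = 4.21e-10). Pf4, another platelet chemokine, was 10.14, 10.16, 9.65 and 10.49 against 6.07, 6.51 and 6.29 and rose 14.1-fold. Of 15 megakaryocyte and platelet genes 13 rose and 0 fell (median 1.92), with list means from 8.76 to 9.61 in leukemia and from 6.70 to 7.12 before it. Leukemic array 3 was the lowest leukemia in 14 of the 15. Preleukemic array 1, high in granulocyte genes, was not high in this list mean (7.12 against 6.70 and 6.84), although Rgs18, a platelet regulator also made by other blood cells, was 8.92 there against 5.89 and 6.32. Rgs18 rose 11.9-fold, or 22.8-fold without that array.

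Stromal, endothelial and matrix genes rose in 20 of 24 cases, with 1 fall (median 1.22). Sparc, a matrix protein, was 9.86, 10.45, 10.12 and 10.81 in leukemia and 6.59, 6.43 and 6.43 before it, a 14.2-fold rise, and the proteoglycan gene Bgn rose 13.3-fold. Vcam1, an adhesion ligand of stroma and macrophages, rose 10.9-fold, and Cxcl12, the chemokine that Cxcr4 binds, 3.73-fold. Serping1, an inhibitor of complement, was 10.11, 10.53, 9.41 and 9.75 against 5.80, 5.34 and 5.62 and rose 20.6-fold. Ctsk, the bone-resorbing protease of osteoclasts, rose 12.7-fold and Thbs1, a matrix protein stored in platelets, 15-fold.

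Of 20 monocyte and macrophage genes 10 rose and 0 fell (median 1.3). C1qb, a complement chain made by macrophages, was 9.69, 10.3, 9.99 and 9.42 in leukemia and 6.67, 6.76 and 6.30 before it, a 9.67-fold rise. Csf1r was 8.62, 10.86, 11.69 and 8.23 against 7.85, 6.49 and 6.48 and rose 7.54-fold, or 4.93-fold without leukemic array 3. The rises included the tissue-macrophage genes Mrc1 (4.01-fold) and Axl (4.19-fold), while Lyz2 (1.36) and Cd14 (0.06) were not called. Lyz2 was highest, at 12.98, in preleukemic array 1.

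Granulocyte genes show how far preleukemic array 1 decides a result. With all arrays limma called 0 of 23 (2 at an unadjusted p under 0.05), and without preleukemic array 1, 14 rose. S100a8, a calcium-binding protein of neutrophils, was 11.44, 11.18, 10.55 and 9.31 in leukemia and 12.09, 6.63 and 6.90 before it. Mmp9, a granule protease, was 9.97, 9.85, 9.97 and 9.12 against 10.56, 6.11 and 6.27, a difference of 2.08 (adjusted p = 0.0566) that became 3.54 (adjusted p = 0.000581) without that array. The list means were 9.39, 8.98, 8.49 and 7.55 in leukemic arrays 1 to 4, and leukemic array 4 was the lowest leukemia in all 23 genes.

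Erythroid genes were uneven between leukemias, with means of 9.49, 9.31, 6.97 and 7.66 against 8.35, 6.73 and 6.74. Of 12 genes 5 rose with all arrays, 10 without preleukemic array 1, 10 without leukemic array 3, 9 without leukemic array 4 and 2 or 3 without any other array. Car1, a carbonic anhydrase of red cells, was 11.45, 10.78, 7.88 and 8.74 against 9.28, 6.31 and 6.02 and rose 5.69-fold, a call that ended without preleukemic array 2 or 3. It rose 11.7-fold without preleukemic array 1 and 8.7-fold without leukemic array 3. The part of granulocyte, erythroid, platelet, macrophage and stromal RNA in the other results was not tested.

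NK-cell and T-cell genes stood out in a single leukemia. The NK and cytotoxic list mean was 6.25, 8.73, 5.90 and 5.86 in leukemia and 8.37, 6.67 and 7.43 before it. Ncr1, an activating NK receptor, was 10.41 and Gzma, a granzyme, 10.77 in leukemic array 2, against at most 5.49 and 4.98 in the other leukemias. Preleukemic arrays lay between, from 6.65 to 9.35 for Ncr1 and from 6.65 to 8.56 for Gzma. With all arrays 1 of 16 genes fell (Klra8) and 0 rose, and without leukemic array 2, 10 fell. With arrays centred on the median of the tested genes 4 fell. Klra8, an NK receptor, was 4.68, 4.66, 4.48 and 4.64 in leukemia against 8.57, 5.84 and 6.76. Cd3g, a chain of the T-cell receptor complex, was 10.42 in leukemic array 2 against 5.59 to 6.28 in the other leukemias, while Cd3e was 6.99 against 6.46 to 6.73. Preleukemic array 1 had 8.05 for Cd3g and 7.69 for Cd3e, the latter above leukemic array 2. In the T-cell list 2 of 19 rose, Thy1 and the adaptor gene Lat, and 1, Cd2, fell. The shares over all genes were 18.7% and 20.4%. The call for Thy1 ended without leukemic array 2 and without preleukemic array 2 or 3.

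The same leukemia had the highest leukemic value in all 28 interferon-stimulated genes (and in 3102 of all 15647 genes), with a list mean of 9.27 against 7.34 to 7.85 in the other leukemias and 7.20 to 7.92 before leukemia. With all arrays 3 of 28 rose and 3 fell, against 18.7% and 20.4% of all genes. Without leukemic array 2, 1 rose and 4 fell. Without preleukemic array 1, 5 rose and 2 fell, without preleukemic array 2, 1 rose and 2 fell, and without preleukemic array 3, 2 rose and 1 fell. Rtp4 was 8.22, 10.41, 8.22 and 8.18 against 7.30, 6.24 and 7.20, and its 3.6-fold rise was not called without leukemic array 2 (adjusted p = 0.0732) or preleukemic array 2 (adjusted p = 0.0972). Ifitm3, a membrane protein that blocks virus entry, was 10.49, 12.05, 11.08 and 11.83 against 10.04, 6.74 and 7.23. It rose 10.3-fold, 20.8-fold without preleukemic array 1 and 6.62-fold without preleukemic array 2. Its relative Ifitm1 was 9.28, 12.94, 12.5 and 13.13 against 8.32, 7.59 and 8.16 and rose 15.4-fold, or 28.6-fold without leukemic array 1.

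**Figure D4:**
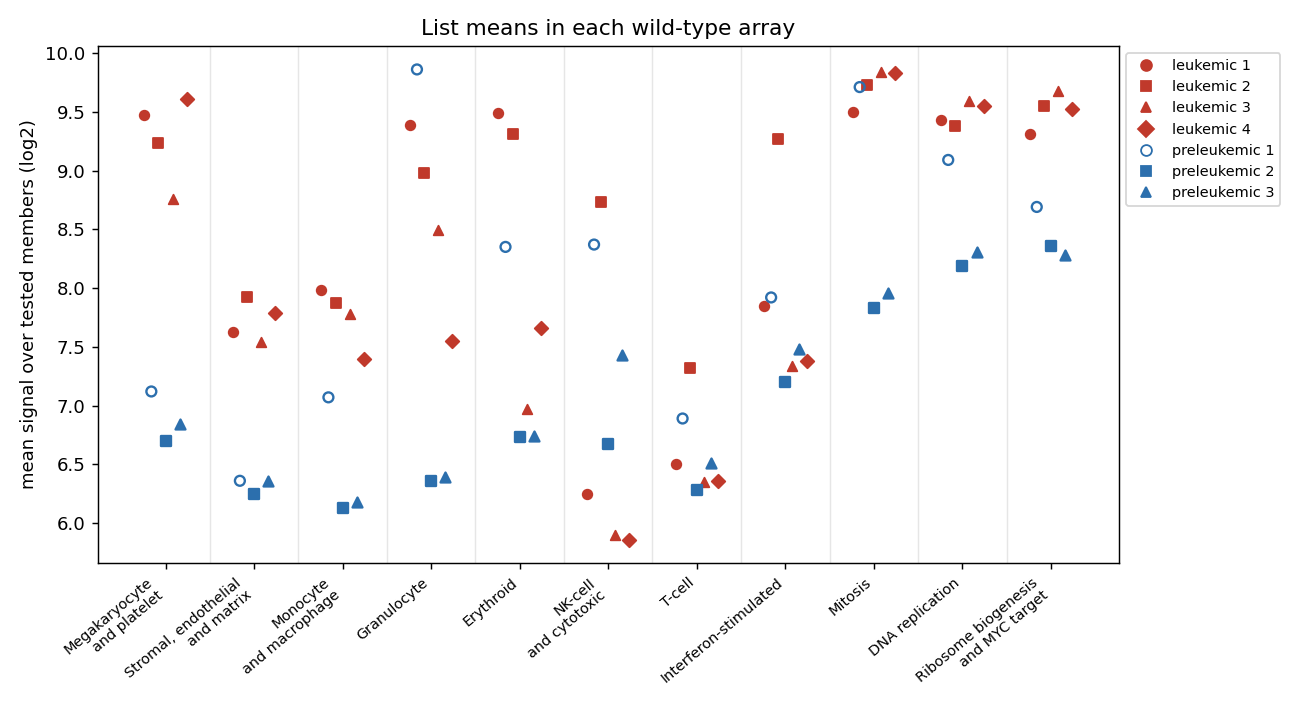
Mean deposited signal (log2) over the tested members of 11 gene lists in each of the 7 WT arrays, red for leukemic and blue for preleukemic, with an open circle for preleukemic array 1. Preleukemic array 1 lies with or above the leukemias in granulocyte (9.86) and mitosis (9.71) genes and with the preleukemic arrays in stromal genes (6.36), and leukemic array 2 is the highest leukemia in NK-cell (8.73) and interferon-stimulated (9.27) genes.

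Some of the largest rises belong to no list. Mrgpra1, a receptor of the Mas-related family, was 12.41, 11.19, 10.76 and 10.96 in leukemia and 5.34, 5.15 and 5.17 before it, at least 63.8-fold higher. The gene listed as ccdc198 was 9.72, 10.36, 9.74 and 8.68 against 4.95 to 5.12, at least 19.9-fold higher. Adgrg3, an adhesion receptor of granulocytes, was 11.4, 11.18, 11.6 and 11.45 against 8.82, 7.01 and 7.40 and rose 12.7-fold. Tlr7, a sensor of viral RNA listed with dendritic-cell genes, was 9.09, 9.39, 8.67 and 9.09 against 7.66, 4.53 and 4.87, at least 7.74-fold higher. Its fitted rise was 20.5-fold without preleukemic array 1. In that list 2 of 18 rose and 4 fell, against 18.7% and 20.4% of all genes. Without leukemic array 2 or without preleukemic array 1, 2 fell.

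The same stage comparison in Pax5+/- mice (10 leukemic and 7 preleukemic arrays) called 9839 genes, or 62.9%. Both comparisons called 5457 genes in the same direction, 89.2% of the WT calls and 55.5% of the Pax5+/- calls, and 10 in opposite directions. The number of arrays differs between the genotypes, so the counts do not compare the extent of change. The difference between the stage differences was tested directly and was called for 29 genes (0.185%), 28 of them with the lower value in WT (0.179%). At an unadjusted p under 0.05 it was found for 1325 genes (8.47%). Without preleukemic array 1, 48 genes were called, 26 of them among the 29, and without preleukemic array 3, 11 were called. In every fit with 1 WT array left out, 10 of the 29 were called.

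The levels behind these 29 calls can be described, but the same preleukemic arrays chose the genes, so their preleukemic calls are no separate support. In 27 the preleukemic WT level was called higher than the preleukemic Pax5+/- level, and in 1, Oaf, lower (0.524% and 0.262% of all genes). The direct comparison of leukemic WT with leukemic Pax5+/- arrays called 1 of the 29, Slc1a5, against 0.16% of all genes. Edaradd, an adaptor of the ectodysplasin receptor, ran from 8.77 to 9.52 in preleukemic WT and from 7.06 to 7.56 in preleukemic Pax5+/- arrays, and averaged 6.02 and 6.01 in leukemia. Its stage difference was -3.20 in WT and -1.25 in Pax5+/- (difference -1.95 ± 0.24, adjusted p = 0.000246). Klhl14, a ubiquitin ligase adaptor of B cells, fell by 3.48 in WT and by 1.86 in Pax5+/-, and the call of the difference was lost in at least 1 fit without a WT array (highest adjusted p = 0.0831). Tmc7, a membrane protein of the TMC family, ran from 6.14 to 7.09 in preleukemic WT and from 5.14 to 5.39 in preleukemic Pax5+/- arrays. In leukemia all 4 WT arrays lay at the dim level for Tmc7. Klhl14 averaged 5.34 in WT and 5.38 in Pax5+/- leukemias, close to that level, which limits the size of a fall in both genes.

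Some genes moved in opposite directions in the 2 genotypes. Dock9, an activator of the GTPase Cdc42, fell by 2.07 in WT and rose by 0.72 in Pax5+/- mice (difference -2.79 ± 0.38, adjusted p = 0.000933). Clcf1, a cytokine that stimulates B cells, fell by 1.71 in WT and rose by 0.55 in Pax5+/-, a difference whose highest adjusted p without 1 WT array was 0.0699. Pacs2, a sorting protein, fell by 1.04 and rose by 0.64. Slc1a5 averaged 11.68 in preleukemic WT, 8.53 in preleukemic Pax5+/-, 9.62 in leukemic WT and 8.42 in leukemic Pax5+/- arrays. Its fall of 2.06 in WT stood beside a difference of -0.11 in Pax5+/- that was not called. Mtor, the growth kinase, fell by 0.63 in WT and differed by -0.01 in Pax5+/-, where it was not called.

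**Figure D5:**
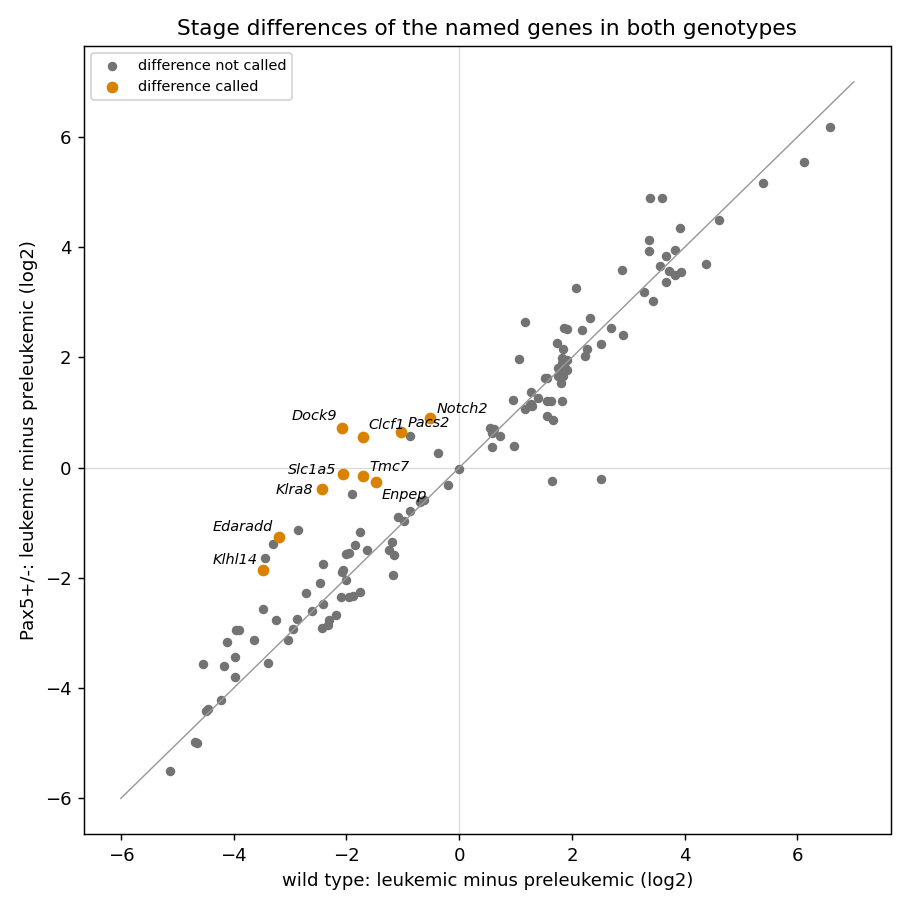
Leukemic minus preleukemic difference (log2) of the named genes in WT (horizontal axis) and Pax5+/- mice (vertical axis), with the line of equal difference. Orange points mark the 10 named genes whose stage differences were called different, among them Dock9 (-2.07 in WT, 0.72 in Pax5+/-) and Edaradd (-3.20 and -1.25).

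For Pax5 the stage differences were -2.43 in WT and -2.90 in Pax5+/- mice (difference 0.47 ± 1.00, adjusted p = 0.956), with an SE too wide to show whether they differ. Some list medians lay close together in WT and Pax5+/-: -1.93 and -1.55 for Pax5-activated genes, 1.02 and 0.88 for ribosome biogenesis, 1.24 and 1.19 for mitosis and 1.92 and 1.82 for platelet genes. Others lay further apart: 0.97 and -0.14 for erythroid, -0.07 and 0.49 for RAS-ERK feedback, -0.20 and 0.44 for dendritic-cell, -0.76 and -0.06 for NK-cell and -0.66 and -0.21 for NF-kB genes. The differences between these medians were not tested.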

How the data were processed

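Total RNA of 24 marrow samples, from as many mice by the design text, was hybridised to Affymetrix arrays. The authors deposited log2 values made with RMA in the oligo package, per the submitters' processing notes, which give no versions here. RMA corrects background, gives the probe values of all arrays the same distribution and then summarises probes. A shift shared by all genes thus cannot be seen. The summarised values still differed slightly between arrays, with array medians from 6.10 to 6.30. The values ran from 3.48 to 14.2 with 0 missing. No depth or detection call exists for these values, and scanner files were not used.

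Of 35556 probe sets, 21789 had 1 gene symbol in the platform table, 1621 had several and 12146 were unnamed here, which gave 19938 genes. For the 999 genes with several probe sets the one with the highest mean was used. Genes at or above the 30th percentile of the array (the dim level, 5.18 to 5.35) on at least 3 arrays were tested (15647 genes). Means of the 4 groups were fitted over all 24 arrays in limma 3.58.1 (R 4.3.3; 20 residual degrees of freedom), with two-sided tests, Benjamini-Hochberg adjustment over all genes tested and a threshold of 0.05. The groups share 1 estimate of the spread. The procedure was tested on simulated data.

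Fold bounds ("at least") apply where arrays of the lower group lay at the dim level. The 39 gene lists (927 genes, 843 on the array) overlap, and their members, like the comparison itself, were chosen with earlier results of these data known. Named genes were a panel of B-cell and leukemia genes, the 12 largest called rises and falls whose arrays did not overlap (leaving out antigen receptor segments, predicted genes, clones, small RNAs, Y-linked genes and Xist), up to 3 called members per list with the largest differences, and up to 10 genes whose stage difference differed between genotypes. Other list members are examples picked after their values were seen. Jak3 and Trp53 were not analysed here. Alternatives covered the samples fitted, array weights, filters, scalings, probe-set means, a Y-linked covariate, a replicate block and each WT array left out. Replicates of a stage are labelled as biological replicates.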

Additional observations from a re-analysis of the deposited data

Results flagged for a closer look

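Dixon's test was applied to 175 gene values and list means over the 4 leukemic WT arrays. It divides the gap between an extreme array and the nearest other by the range of the 4 arrays. In 15 cases this ratio exceeded Dixon's critical value for 4 samples. Chance gives such a ratio in about 1 in 20 groups. A small log2 gap can pass where the other arrays lie close together, as for Reln (5.89 against 5.65 to 5.68). Leukemic array 2 stood apart in Pax5 (6.34, low), Cd2 (9.41, high) and Rtp4 (10.41, high), and in the list means of T-cell genes (7.32, high) and NK-cell genes (8.73, high). Leukemic array 1 stood apart in Myc (9.97, low), Ifitm1 (9.28, low), Ccnd2 (10.61, low), Reln (5.89), Eya1 (6.54) and the mean of Pax5-activated genes (8.60, high). Leukemic array 4 stood apart in the granulocyte genes Mmp9 (9.12, low) and Ctsg (7.64, low), in Lat (8.81, low) and in Fosb (6.43, high).

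The leukemic minus preleukemic difference itself differed between WT and Pax5+/- mice, by the limma contrast of the stage differences, in 10 named genes. WT minus Pax5+/- it was -2.79 for Dock9, -2.26 for Clcf1, -2.07 for Klra8, -1.95 for Slc1a5 and -1.95 for Edaradd. It was -1.67 for Pacs2, -1.62 for Klhl14, -1.55 for Tmc7, -1.42 for Notch2 and -1.22 for Enpep. For Klra8 and Tmc7 all 4 leukemic WT arrays lay at the dim level. Their Pax5+/- means were low at both stages, 4.92 and 4.54 for Klra8 and 5.23 and 5.07 for Tmc7 (preleukemic and leukemic). Little room was left there for a fall in Pax5+/-. With 1 WT array left out the highest adjusted p was 0.0699 for Clcf1, 0.0657 for Klra8, 0.0831 for Klhl14 and 0.0516 for Notch2, so each of these lost its call in at least 1 fit. Klra8 also lost it with the Y-linked covariate (adjusted p = 0.108).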

How the results depend on the processing

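The count of genes that fell ranged from 2048 to 4066 and that of genes that rose from 2016 to 2981 when each WT array was left out in turn. Centring arrays on the median of the tested genes, an alternative chosen after seeing the data, gave 5741 falls. With the replicate number as a block in the WT arrays, 1308 genes rose and 1054 fell, and Pax5 differed by -2.62 (adjusted p = 0.143). The correlations of deviations of same-numbered arrays were 0.0897, -0.218 and 0.027, and those of differently numbered arrays ran from -0.14 to 0.204. With so few arrays these values cannot show whether same-numbered samples share more than a number. Genes whose stage difference differed between genotypes numbered 105 with array weights and 11 to 48 with each WT array left out. The Pax5 difference was -2.43 with only the 7 WT arrays fitted (adjusted p = 0.115), -1.85 with the Y-linked covariate (adjusted p = 0.154) and -2.86 to -1.39 with each WT array left out. No gene called with all arrays was called in the opposite direction in any of the other fits. Sign changes occurred among uncalled genes. With each WT array left out in turn, Il7r ran from -0.45 to 0.08, above 0 without leukemic array 2, and Cdkn2a from -0.04 to 0.05. Cdkn2a was -0.03 with the Y-linked covariate, -0.02 with the block and -0.12 with tested-gene centring. Of the other 135 named genes, 27 lost their call with the block, 16 without preleukemic array 2, 13 without preleukemic array 3 and 10 with only the WT arrays fitted. The array design and 4 against 3 arrays limit small differences and values near the dim level.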

Other observations

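Among leukemic WT arrays, the gene lists on which 1 array was extreme differed between arrays. Over all genes tested, leukemic arrays 1 to 4 held the lowest leukemic value in 4711, 3481, 4261 and 3194 genes, and the highest in 3801, 3102, 4004 and 4740. Leukemic array 3 was the lowest in 11 of 12 erythroid genes and the highest in 18 of 24 cholesterol and fatty acid synthesis genes, and leukemic array 1 was the lowest in 17 of those 24. Leukemic array 2 was the lowest in 22 of 41 DNA replication genes and in 16 of 26 pro-B and pre-B genes.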
